A study of Sus scrofa with 6 samples.

Results

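The nuclear genes for the proteins of the mitochondrial ribosome were followed in 2 kinds of pig cells. A gene was taken when its Ensembl pig symbol was MRPL or MRPS followed by a number, which gave 63 of 20131 genes, 40 with large subunit symbols (MRPL) and 23 with small subunit symbols (MRPS). The pgEpiSC, pre-gastrulation epiblast stem cells that trace to the epiblast of embryos at embryonic day 10, had 4 libraries. The pEF, porcine embryonic fibroblasts of the fetal stage at embryonic day 30, had 2 libraries. The labels name no treatment, transgene or genotype for either kind, and do not say which pgEpiSC line or clone, or which fetus, a library came from. The libraries are described as biological replicates, and where they were not separate cultures or animals the p-values below measure only the spread between these libraries.

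Mitochondria carry their own ribosomes, which translate the few proteins encoded by mitochondrial DNA, all of them core subunits of the oxidative phosphorylation complexes. The RNAs of these ribosomes are mitochondrial transcripts, whereas every protein is encoded in the nucleus, made in the cytosol and imported. Some of the proteins descend from bacterial ribosomal proteins, and others are known only from mitochondria. In mammals the large subunit holds the peptidyl transferase centre and the exit tunnel, and the small subunit holds the mRNA and the decoding site.

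Total RNA was depleted of rRNA and sequenced as strand-specific libraries, and expression was given by the authors as TPM, a level per transcript length, so that levels of different genes can be set side by side. Column totals ran from 157288 to 320206 TPM for pgEpiSC, and were 93556 and 145611 TPM for pEF 1 and 2. Because of these unequal totals each library was divided by a median-ratio factor, which was 0.697, 2.15, 1.61 and 0.722 in pgEpiSC 1 to 4 and 0.569 and 0.944 in pEF 1 and 2, and the results are called scaled TPM. The scaling sets the typical gene level between libraries, so a fold below is a fold relative to the typical gene. The depth behind each value is unknown, since TPM keeps none and the labels give only an average read number over the libraries. A deposited TPM of at least 1 was reached by 10250 and 9892 genes in pgEpiSC 2 and 3 but by 7149 and 7146 in pgEpiSC 1 and 4, so the pgEpiSC libraries differed in pairs, and by 7208 and 8699 genes in pEF 1 and 2. All 7 pgEpiSC markers looked up (NANOG, LIN28A, DNMT3B, EPCAM, CDH1, OTX2 and LEFTY2) were higher in every pgEpiSC library than in either pEF library, with summed scaled TPM of 687 to 941 in pgEpiSC and 0.234 to 0.725 in pEF; LIN28A was listed at 0 in both pEF libraries. All 7 fibroblast markers (COL1A2, COL3A1, COL5A2, THBS1, S100A4, PRRX1 and PDGFRA) were lower in every pgEpiSC library, at 2.93 to 10.2 in pgEpiSC and 1681 to 2707 in pEF. The 6 hypoblast and trophectoderm markers in the table summed to 2.80 to 4.14 scaled TPM in pgEpiSC and 0.742 to 0.856 in pEF. They went both ways, with 3 above and 2 below both pEF libraries in every pgEpiSC library. FOXA2 averaged 2.32 scaled TPM in pgEpiSC and 0.00792 in pEF, and TFAP2C 0.818 in pgEpiSC and 0.0613 in pEF. No endothelial or blood marker passed 0.303 in any library. The part of these markers in the results below was not tested.

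The set as a whole averaged higher in pgEpiSC, with overlap between the groups. Its 63 genes summed to 1001, 693, 592 and 985 scaled TPM in pgEpiSC 1 to 4, against 621 and 549 in pEF 1 and 2. It was pgEpiSC 3 that lay below pEF 1. The mean was 818 ± 207 (SD, n = 4) in pgEpiSC and 585 ± 51.0 (SD, n = 2) in pEF, a ratio of 1.40. A share of the listed TPM does not depend on the scaling. By this measure the set held 0.444, 0.466, 0.457 and 0.428% in pgEpiSC 1 to 4 and 0.378 and 0.356% in pEF 1 and 2, and the groups did not overlap. No p is given for these sums, since they are scores over the set. In bulk RNA fewer cells with a transcript and less of it per cell cannot be told apart.

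Large subunit genes made up most of the total, in number and in level. Summed, they reached 742, 495, 435 and 753 scaled TPM in pgEpiSC 1 to 4 and 442 and 395 in pEF 1 and 2. The small subunit genes summed to 259, 198, 157 and 232 scaled TPM in pgEpiSC and to 179 and 154 in pEF. The large-to-small ratio of the sums, another measure free of the scaling, was 2.87, 2.50, 2.76 and 3.24 in pgEpiSC and 2.48 and 2.56 in pEF. The pgEpiSC mean of 2.84 ± 0.307 (SD, n = 4) lay above the pEF mean of 2.52 ± 0.0613 (SD, n = 2), but pgEpiSC 2 fell between the pEF libraries. The order turned when the median gene of each subunit was used in place of the sum, at 1.496 ± 0.0731 in pgEpiSC and 1.84 ± 0.150 in pEF, with no overlap. One gene, MRPL22, held 8.73 ± 1.88% of the summed level of the 63 genes in pgEpiSC and 5.82 ± 1.29% in pEF, and without it the ratio of the sums was 2.50 ± 0.218 in pgEpiSC and 2.31 ± 0.103 in pEF. MRPS30 and MRPS18A, in spite of their symbols, are known from mammalian structures to sit in the large subunit; placed there, they gave ratios of 3.06 ± 0.290 in pgEpiSC and 2.76 ± 0.0672 in pEF.

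**Figure D1:**
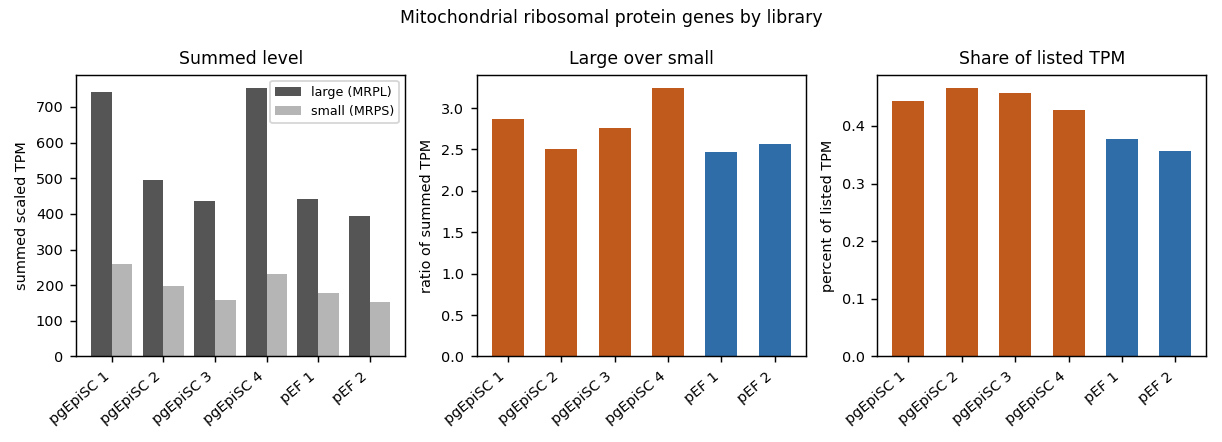
Summed scaled TPM of large and small subunit genes (left), the ratio of the large to the small sum (middle) and the share of the listed TPM held by the 63 genes (right), with 1 bar or pair of bars per library and no error bars. The sums of pgEpiSC 1 and 4 stand above those of the other libraries, whereas the share is between 0.428 and 0.466% in all pgEpiSC libraries and at 0.378 and 0.356% in the pEF libraries.

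All 63 genes passed the filter for testing (1 TPM or more in at least 2 libraries). None of the 63 is thus left out of the counts, but they are not every known member. On the lists by origin used below, 35 of 46 genes listed with a bacterial counterpart and 28 of 31 listed as mitochondria-specific were found by symbol. Only 69.8% of all rows had a symbol, and whether the missing genes lie among the rest was not tested. The sums, ratios and shares above cover only the 63 genes found. In limma on log2(scaled TPM + 1), with Benjamini-Hochberg adjustment over 10424 genes and a call at an adjusted p below 0.05, 20 of the 63 were higher in pgEpiSC, 2 were lower and 41 were not called. Of all tested genes 27.0% were called higher and 30.9% lower, 57.9% together. The members' share of higher calls, 31.7%, was thus near that of all genes in this setting. Their share of lower calls, 3.17%, was far below the 30.9%. After quantile normalization 38 of the 63 were called higher, beside 35.1% of all tested genes. Their median log2 fold was 0.52, against 0.02 for all tested genes, and 47 of the 63 folds were above 0. In 30 of the 63 every pgEpiSC library was above both pEF libraries (34.5% of all tested genes), and in 5, MRPL24, MRPL28, MRPS7, MRPS10 and MRPS18B, every pgEpiSC library was below both (35.9%; 70.5% of all tested genes did not overlap in either direction).

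By subunit, 10 of 40 large subunit genes and 10 of 23 small subunit genes were called higher, and 1 of each was called lower. The median fold was 0.52 for the large and 0.53 for the small subunit. The difference in the share called was not tested. The number of higher calls depended on which libraries entered: 8 without pEF 1, 11 without pEF 2, 12 without pgEpiSC 1 and 4, and 39 without pgEpiSC 2 and 3, where 17.0, 19.3, 24.6 and 33.5% of all tested genes were called higher. As deposited, without scaling, 17 were higher and 0 lower (18.0 and 9.43% of all genes), the median fold of all genes was 0.48 and that of the members 1.06. The members' median less that of all genes was thus 0.50 scaled and 0.57 as deposited, and 0.51 after rescaling to equal totals and after quantile normalization. With a mean TPM of at least 5 it was 0.34, where the median of all tested genes was 0.18, and with a pseudocount of 5 it was 0.30. Over all other settings it ran from 0.27 without pgEpiSC 1 and 4 to 0.66 without pgEpiSC 2 and 3. The members were more abundant than most tested genes. The median of the pgEpiSC means was 9.45 scaled TPM for members and 2.81 for all tested genes, and the part of abundance was not tested.

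**Figure D2:**
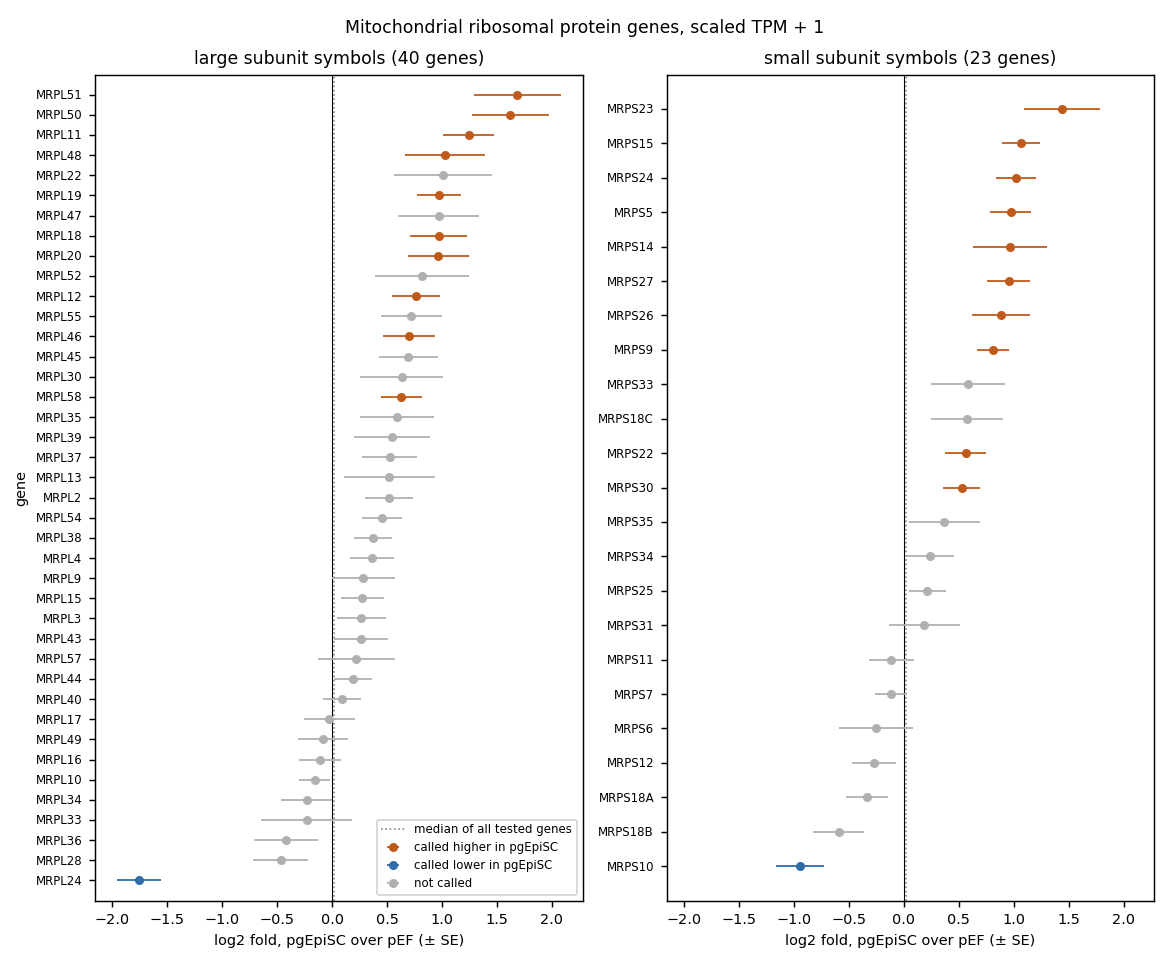
Log2 fold of pgEpiSC over pEF with its standard error for each large subunit gene (left) and small subunit gene (right), ordered by fold; orange and blue points passed the adjusted threshold in limma, grey ones did not. Most folds lie above 0, with MRPL51 at 1.68 at the top and MRPL24 at -1.76 at the bottom.

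Of the genes called higher, the largest fold was that of MRPL51 (ENSSSCG00000039662), a mitochondria-specific protein of the large subunit. It was at 53.6, 25.1, 21.9 and 48.0 scaled TPM in pgEpiSC 1 to 4, against 9.54 and 10.6 in pEF 1 and 2. The groups did not overlap, and pgEpiSC 1 and 4 stood well above pgEpiSC 2 and 3. The log2 fold was 1.68 ± 0.40 (SE, limma adjusted p = 0.00710), and without pEF 1 it was 1.56 and no longer called (limma adjusted p = 0.0588).

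MRPL50 (ENSSSCG00000027974), also specific to mitochondria and in the large subunit, was at 11, 5.03, 5.18 and 11.8 scaled TPM in pgEpiSC and at 2.10 and 1.57 in pEF. Its fold was 1.62 ± 0.35 (limma adjusted p = 0.00476), again with pgEpiSC 1 and 4 above pgEpiSC 2 and 3. MRPS23 (ENSSSCG00000035193), a mitochondria-specific protein of the small subunit, had 22.0, 10.6, 8.19 and 13.6 scaled TPM in pgEpiSC and 3.99 and 4.12 in pEF, a fold of 1.44 ± 0.34 (limma adjusted p = 0.00763) that lost its call without pEF 1 (limma adjusted p = 0.0519). Here pgEpiSC 1 stood alone at the top, and the pEF libraries differed little.

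MRPL11 (ENSSSCG00000012943) belongs to the base of the stalk to which elongation factors bind. Its levels were 24.8, 22.2, 17.2 and 24.8 scaled TPM in pgEpiSC and 9.26 and 8.24 in pEF. All pgEpiSC libraries lay close together for this gene, and the fold was 1.24 ± 0.23 (limma adjusted p = 0.00241). MRPL12, the protein of the stalk itself, was at 9.74, 7.24, 6.24 and 8.74 scaled TPM in pgEpiSC and at 4.83 and 3.69 in pEF. Its fold of 0.77 ± 0.22 (limma adjusted p = 0.0166) was called with all libraries and lost its call without pEF 1 or 2 and as deposited (limma adjusted p = 0.0531, 0.163 and 0.0701). MRPL10, which anchors MRPL12, was not called, at 1.96 ± 0.217 scaled TPM in pgEpiSC and 2.30 ± 0.328 in pEF.

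MRPS15, the counterpart of bacterial S15, which binds rRNA early in assembly, had 4.95, 3.63, 3.49 and 4.77 scaled TPM in pgEpiSC and 1.52 and 1.41 in pEF (fold 1.07 ± 0.17, limma adjusted p = 0.00113). MRPL48, a mitochondria-specific large subunit protein, had 13.6, 5.27, 6.44 and 12.7 scaled TPM in pgEpiSC and 3.71 and 3.95 in pEF. Its call was the least secure of the 6 largest rises (fold 1.03 ± 0.36, limma adjusted p = 0.0399), and it was lost when pgEpiSC 1, pgEpiSC 4 or either pEF library was left out (limma adjusted p = 0.0645, 0.0699, 0.165 and 0.130).

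The higher calls held with each single library left out for 7 of the 20 genes, namely MRPL11, MRPL19, MRPL50, MRPS5, MRPS9, MRPS15 and MRPS24. MRPS5 and MRPS24 correspond to bacterial S5 and S3, which line the path by which mRNA enters the small subunit, and MRPL19 to bacterial L19, which lies at the subunit interface. MRPS9, the counterpart of bacterial S9, was at 4.56, 5.36, 4.57 and 4.67 scaled TPM in pgEpiSC and at 2.25 and 2.34 in pEF. Its fold was 0.81 ± 0.15 (limma adjusted p = 0.00203), and this call was lost as deposited (limma adjusted p = 0.0908) and after rescaling to equal totals (limma adjusted p = 0.0620). MRPS30, which sits in the large subunit in spite of its symbol, was at 6.17, 6.74, 5.31 and 5.90 scaled TPM in pgEpiSC and at 4.06 and 3.68 in pEF. It had the smallest fold of the 20 genes called higher, 0.53 ± 0.17 (limma adjusted p = 0.0252), a call lost without pEF 1, pEF 2, pgEpiSC 1 or pgEpiSC 4 (limma adjusted p = 0.125, 0.182, 0.0673 and 0.0546) and as deposited (limma adjusted p = 0.163).

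MRPL58, also called ICT1, is a peptidyl-tRNA hydrolase that frees stalled mitochondrial ribosomes and is built into the large subunit. It was low in both cell types, at 3.51, 3.02, 2.13 and 3.09 scaled TPM in pgEpiSC and 1.26 and 1.82 in pEF. The groups did not overlap and the fold was 0.63 ± 0.19 (limma adjusted p = 0.0198), a call lost without pEF 1 (fold 0.44, limma adjusted p = 0.202) and as deposited (limma adjusted p = 0.169).

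**Figure D3:**
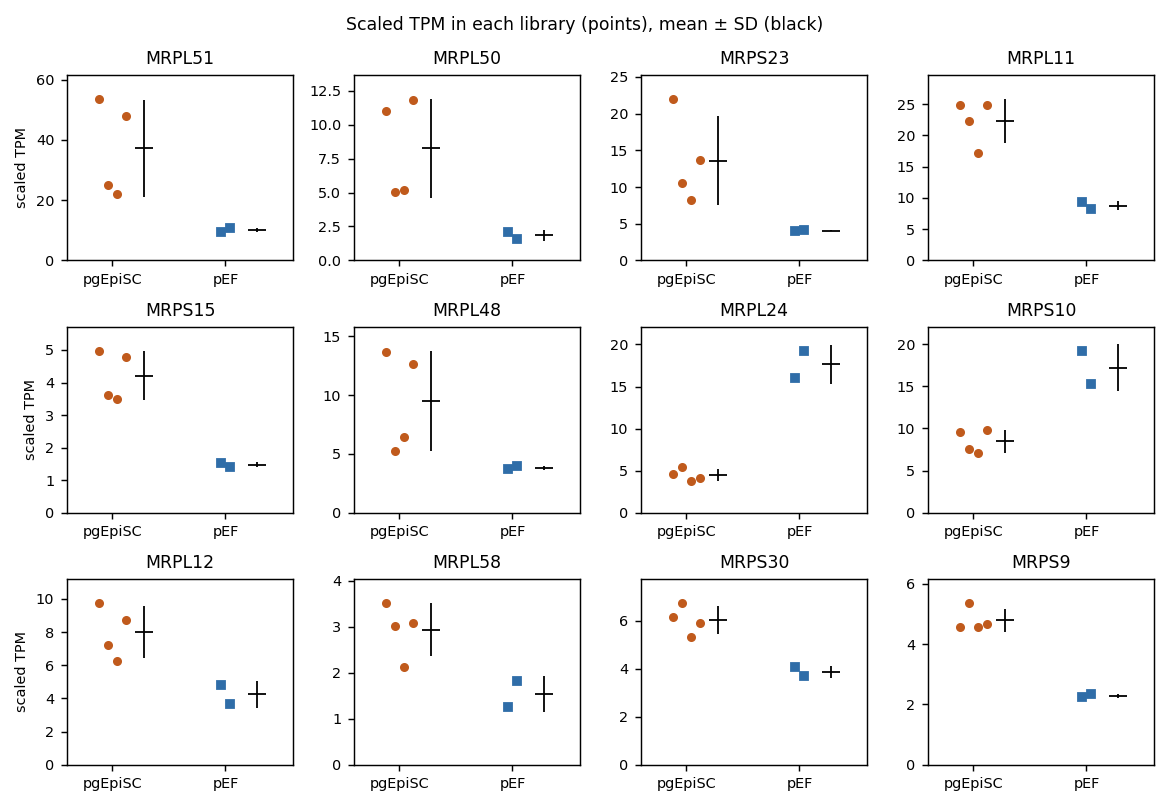
Scaled TPM of 12 named genes in each pgEpiSC library (orange circles, replicates 1 to 4 from left) and each pEF library (blue squares), with mean ± SD in black; each panel has its own axis from 0. Among these, MRPL24 and MRPS10 are the 2 genes with every pgEpiSC point below both pEF points. Replicates 1 and 4 lie above replicates 2 and 3 in all but MRPL24, MRPS9 and MRPS30, and far above them in MRPL51, MRPL50 and MRPL48.

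MRPL24 and MRPS10 were called lower. MRPL24 (ENSSSCG00000006469) corresponds to bacterial L24, a protein that binds the large subunit rRNA early in assembly and lies near the exit of the peptide tunnel. Its levels were 4.64, 5.47, 3.81 and 4.16 scaled TPM in pgEpiSC, against 16.02 and 19.2 in pEF. The groups were far apart, with a fold of -1.76 ± 0.20 (limma adjusted p = 0.000162), and the call held with each single library left out. As a share of the summed level of the 63 genes, MRPL24 held 0.580 ± 0.169% in pgEpiSC and 3.04 ± 0.653% in pEF (SD, n = 4 and 2). As deposited its fold was -1.15 and not called (limma adjusted p = 0.124).

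MRPS10 (ENSSSCG00000001638) corresponds to bacterial S10 in the head of the small subunit. It was at 9.52, 7.55, 7.12 and 9.81 scaled TPM in pgEpiSC and at 19.2 and 15.3 in pEF, a fold of -0.94 ± 0.22 (limma adjusted p = 0.00684). Its share of the summed level was 1.06 ± 0.112% in pgEpiSC and 2.94 ± 0.220% in pEF. The call was lost without pEF 1 (fold -0.86, limma adjusted p = 0.0623) and as deposited (fold -0.34, limma adjusted p = 0.665). As deposited, MRPL24 and MRPS10 were the only members with a fold below 0; the other 14 members with a fold below 0 after scaling were above 0 as deposited, and none of these was called.

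Among the paralogs of bacterial S18 the values went different ways. MRPS18C, which takes the place of S18 in the small subunit, had 8.13, 3.43, 3.65 and 7.55 scaled TPM in pgEpiSC and 3.403 and 3.09 in pEF, with a fold of 0.58 ± 0.33 (limma adjusted p = 0.164). MRPS18B, a small subunit protein at another position, had 6.65, 8.99, 5.43 and 5.93 scaled TPM in pgEpiSC and 11.8 and 9.28 in pEF, with a fold of -0.59 ± 0.23 (limma adjusted p = 0.0578). MRPS18A, in the large subunit, had 5.04, 6.21, 4.22 and 4.80 in pgEpiSC and 7.15 and 6.07 in pEF, with a fold of -0.33 ± 0.19 (limma adjusted p = 0.163). None of these 3 folds was called. Those of MRPS18A and MRPS18B were 0.24 and 0.01 as deposited, where the median of all tested genes was 0.48. Within pgEpiSC after scaling, MRPS18C was lowest in library 2, where MRPS18A and MRPS18B were highest. As deposited this contrast was absent. MRPS18C was then also highest in library 2, at 5.67, 7.37, 5.89 and 5.45 TPM in pgEpiSC 1 to 4, as were MRPS18A and MRPS18B.

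By the mean over all libraries MRPL22, MRPL57 and MRPL13 were the most abundant large subunit genes, while in pgEpiSC alone MRPL51 had a higher mean than MRPL13. MRPL22 (ENSSSCG00000017065), which lines the exit tunnel, had the highest mean in both cell types, at 101, 45.6, 45.9 and 103 scaled TPM in pgEpiSC and 41.8 and 27.0 in pEF. In pEF 2 it lay below MRPL57 (32.0) and MRPL28 (27.8), and the pEF means of MRPL22, MRPL33 and MRPL57 (34.4, 32.6 and 31.4) differed by less than the spread between the pEF libraries of MRPL22. Its fold of 1.01 ± 0.45 was not called (limma adjusted p = 0.0840), with pgEpiSC 1 and 4 far above pgEpiSC 2 and 3. As deposited it was called, at 1.64 (limma adjusted p = 0.00629). MRPL57, a mitochondria-specific protein, averaged 38.5 ± 13.5 scaled TPM in pgEpiSC and 31.4 ± 0.791 in pEF, and MRPL13, the counterpart of bacterial L13, 34.7 ± 15.6 in pgEpiSC and 22.1 ± 2.87 in pEF; both sets of libraries overlapped and neither was called (limma adjusted p = 0.613 and 0.304).

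Of the small subunit genes MRPS6, MRPS26 and MRPS31 were the most abundant over all libraries. MRPS6, the counterpart of bacterial S6, averaged 24.3 ± 7.60 scaled TPM in pgEpiSC and 28.6 ± 7.59 in pEF (limma adjusted p = 0.542), and MRPS31, specific to mitochondria, 19.4 ± 6.36 in pgEpiSC and 16.4 ± 2.56 in pEF (limma adjusted p = 0.633). MRPS26, also specific to mitochondria, was called higher, with 23.9, 24.0, 14.4 and 20.8 scaled TPM in pgEpiSC against 11.3 and 9.96 in pEF (fold 0.88 ± 0.26, limma adjusted p = 0.0205). That call was lost without pEF 1, pEF 2 or pgEpiSC 1 (limma adjusted p = 0.104, 0.154 and 0.0513). At the low end, the member means reached down to 1.96 scaled TPM in pgEpiSC (MRPL10) and 1.47 in pEF (MRPS15). Across the 63 genes the pgEpiSC and pEF means ranked alike (Spearman rho = 0.76 across genes, which are not independent replicates and share libraries and scaling).

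Members were also sorted by origin, into those listed with a bacterial counterpart and those listed as specific to mitochondria. MRPL55 was counted with the conserved genes. MRPS18A and MRPS18B were counted as specific to mitochondria, although they are paralogs of bacterial S18. Whether these placements hold was not tested, and the counts below depend on them. Of 35 tested conserved genes 10 (28.6%) were higher and 2 lower, with a median fold of 0.52. Of 28 mitochondria-specific genes 10 (35.7%) were higher and 0 lower, with a median of 0.53. Both shares of higher calls lay near the 27.0% of all tested genes, and both shares of lower calls below the 30.9%. In the large subunit the higher calls were 5 of 24 conserved and 6 of 18 specific genes, and in the small subunit 5 of 11 and 4 of 10, with MRPS30 and MRPS18A counted in the large subunit. After scaling, MRPL24 was the only one of 6 tested exit tunnel genes that was called, and the other 5 had folds between 0.19 and 1.01. As deposited the calls were others: MRPL22 and MRPL47 were higher (limma adjusted p = 0.00629 and 0.0313) and MRPL24 was not called. MRPL47 was at the threshold after scaling (fold 0.97, limma adjusted p = 0.050035).

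Proteins that work with the mitochondrial ribosome were looked up as well. Of 5 ribosomal proteins with other symbols, PTCD3, an RNA-binding protein of the small subunit, and GADD45GIP1, of the large subunit, were higher. Of these, PTCD3 was at 10.6 ± 0.763 scaled TPM in pgEpiSC and 3.78 ± 0.300 in pEF (fold 1.28 ± 0.17, limma adjusted p = 0.000438), and GADD45GIP1 at 4.16 ± 1.13 in pgEpiSC and 0.931 ± 0.193 in pEF (fold 1.40 ± 0.21, limma adjusted p = 0.000764). DAP3, AURKAIP1 and CHCHD1 were not called, with DAP3 at -0.40 ± 0.20. Of 17 mitochondrial translation factors 8 were higher and 0 lower, with a median of 0.54, beside 27.0% higher and 30.9% lower of all tested genes. As deposited 3 were higher and 0 lower, beside 18.0 and 9.43%. LRPPRC and SLIRP, partners that bind and stabilise mitochondrial mRNAs, had the largest folds of that list at 2.33 ± 0.36 and 1.81 ± 0.56 (limma adjusted p = 0.000891 and 0.0228), followed by the elongation factor GFM1 at 1.19 ± 0.17 (limma adjusted p = 0.000519). Of 21 tested assembly and rRNA modification genes 5 (23.8%) were higher and 2 (9.52%) lower, beside 27.0 and 30.9% of all tested genes. Their median was 0.28. As deposited 2 of them were higher and 0 lower, beside 18.0 and 9.43%. METTL17 and NOA1, both needed for small subunit assembly, were higher by 1.44 ± 0.16 and 1.39 ± 0.25 (limma adjusted p = 0.000164 and 0.00173), while TRUB2, a pseudouridine synthase, fell by 0.96 and MRM1, an rRNA methyltransferase, by 0.69 (limma adjusted p = 0.00110 and 0.00495), both not called as deposited. Cytosolic ribosomal protein genes, for comparison, had 5 higher (10.2%) and 3 lower (6.12%) of 49 tested, beside 27.0 and 30.9%. Their median was 0.55. As deposited 29 of them were higher and 0 lower, beside 18.0 and 9.43%, with a median of 1.197.

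**Figure D4:**
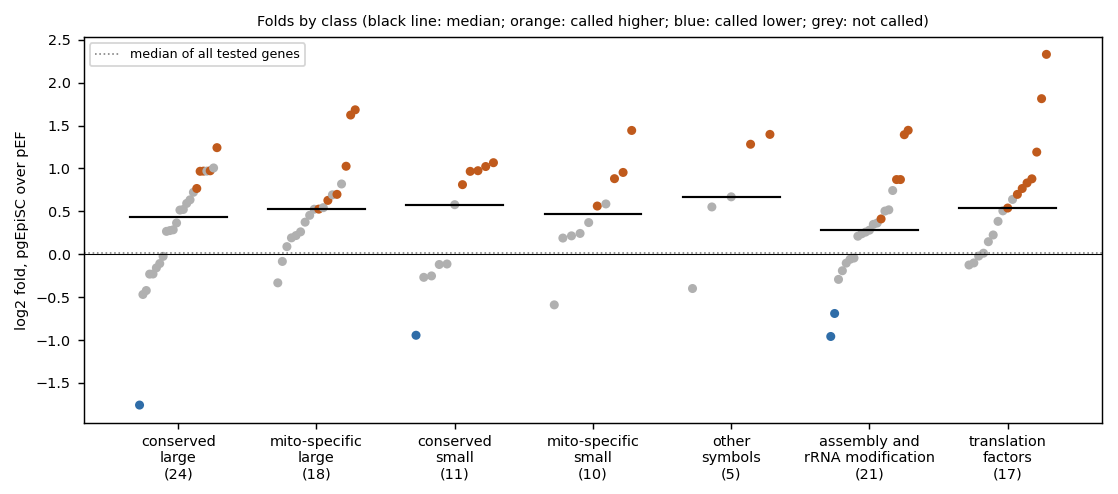
Log2 folds of pgEpiSC over pEF by class, with 1 point per gene, the number of genes in brackets and the class median as a black line; orange points were called higher, blue lower and grey not called. All class medians lie between 0.28 and 0.67, above the dotted line of all tested genes at 0.02, and the lowest member is MRPL24 at -1.76.

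The spread between the pgEpiSC libraries differed from gene to gene, over a range also seen among all tested genes. The coefficient of variation (CV, SD over mean) of scaled TPM over the 4 libraries had a median of 19.8% over the 63 genes, against 23.2% over all tested genes, and ran from 7.27% to 49.6%. It was below 20% for 32 genes, from 20 to below 30% for 8 and 30% or more for 23. The share below 20% was 50.8%, beside 39.7% of all tested genes, and the share at 30% or more was 36.5%, beside 33.2%. The median was 21.4% for large and 18.1% for small subunit genes. CVs of 30% or more were held by 16 of 40 large and 7 of 23 small subunit genes, and by 33.2% of all tested genes.

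The genes with a CV of 30% or more shared an order of libraries. In 22 of these 23 genes pgEpiSC 2 and 3 were both below pgEpiSC 1 and 4 after scaling, and the exception was MRPL36. The CV and the order come from the same scaled values. The order among all tested genes with a CV of 30% or more was not counted, so the 22 have no matched background. Over all 63 genes this order was seen in 38 (60.3%) and the opposite order in 0, against 32.4 and 24.3% of all tested genes and 83.7 and 8.16% of 49 cytosolic ribosomal protein genes. The pairs are those that differed in the number of genes at 1 TPM or more, and the part of that difference in these results was not tested.

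MRPL52, MRPL33 and MRPL13 had the largest CVs. MRPL52, a mitochondria-specific protein, was at 38.3, 15.98, 12.6 and 26.2 scaled TPM in pgEpiSC 1 to 4 (CV 49.6%) and at 9.70 and 13.9 in pEF. MRPL33, the counterpart of bacterial L33, was at 28.6, 16.9, 22.6 and 47.7 (CV 46.3%) and at 39.8 and 25.3 in pEF, and MRPL13 at 42.5, 19.2, 24.5 and 52.8 (CV 45.1%) and at 24.2 and 20.1 in pEF. The pgEpiSC and pEF values overlapped for these 3 genes and none was called after scaling. MRPL52 was called higher as deposited (fold 1.40, limma adjusted p = 0.0374), where its groups did not overlap, and after quantile normalization (limma adjusted p = 0.0276).

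MRPL16, MRPS9 and MRPS30 had the smallest CVs, at 7.27, 7.98 and 9.84%. MRPL16, the counterpart of bacterial L16, was at 11.5, 11.2, 10.03 and 11.9 scaled TPM in pgEpiSC and at 12.6 and 11.6 in pEF, and the groups overlapped (fold -0.11 ± 0.19, limma adjusted p = 0.644).

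The values as deposited describe the same groups from the other side, with no test, since the CV after scaling defined them. The factor of pgEpiSC 2 was 3.09 times that of pgEpiSC 1, and the ratio of their deposited TPM had a median of 3.11 over the 32 genes with a CV below 20%, but 1.48 over the 23 genes with a CV of 30% or more. MRPL48 had 9.50, 11.3, 10.4 and 9.14 TPM as deposited in pgEpiSC 1 to 4, a CV of 9.69%, against 44.8% after scaling. MRPS9 had 3.18, 11.5, 7.36 and 3.37 TPM as deposited, a CV of 62.1%, against 7.98% after scaling. The CV was smaller as deposited than scaled in 19 of the 63 genes, against 1456 of 10424 tested genes and 29 of 49 cytosolic ribosomal protein genes.

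**Figure D5:**
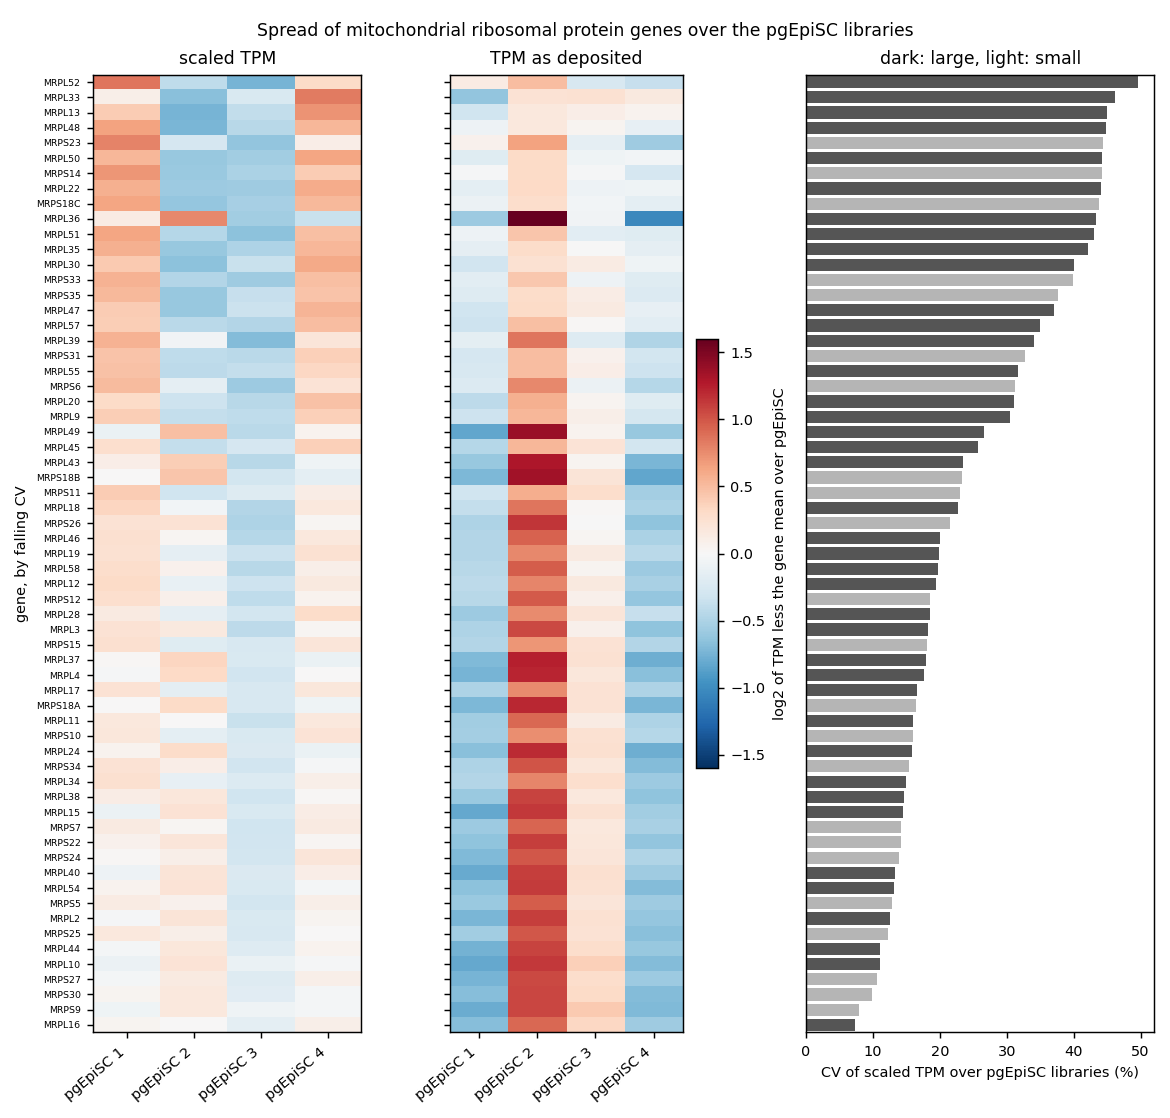
Log2 level of each of the 63 genes in each pgEpiSC library less the gene's mean over these libraries, for scaled TPM (left) and TPM as deposited (middle), and the CV of scaled TPM (right; dark bars large, light bars small subunit symbols), with genes ordered by falling CV. At the top the scaled values are high in pgEpiSC 1 and 4 and the deposited values nearly level; at the bottom the scaled values are nearly level and the deposited values high in pgEpiSC 2.

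Where the genes lie gave 1 pair of neighbours. By RefSeq gene order (Sscrofa11.1), in which 62 of the 63 genes were found as protein-coding, MRPS11 and MRPL46 are adjacent. MRPL46, a mitochondria-specific protein, was called higher, at 15.4, 13.2, 9.38 and 14.5 scaled TPM in pgEpiSC and 7.78 and 7.35 in pEF (fold 0.70 ± 0.24, limma adjusted p = 0.0340), a call lost without pEF 1, pEF 2, pgEpiSC 1 or pgEpiSC 4 and as deposited. MRPS11, the counterpart of bacterial S11, was not called, at 4.26, 2.58, 2.80 and 3.51 in pgEpiSC and 4.15 and 3.08 in pEF (fold -0.11 ± 0.20, limma adjusted p = 0.651). The difference between these folds was not tested. In the same annotation 21 of the 63 genes overlap another gene, among them MRPL19, MRPL22, MRPL28, MRPL47, MRPL57, MRPS6, MRPS7, MRPS15, MRPS18B, MRPS18C, MRPS26 and MRPS30 of those named above. Mitochondrial ribosomal protein genes also have processed pseudogenes in mammals. Whether the authors' counting separated reads of such overlaps and copies by strand or sequence is not given in the sources used here, so the levels of these genes carry that uncertainty.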

How the data were processed

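The table deposited by the authors holds TPM (per the file headers) for 20132 Ensembl gene IDs in 6 libraries. The submitters' processing notes list STAR 2.6.0c and kallisto 0.44.0 without their roles; genome build and annotation: not given in the sources used here. Symbols came from a gene name table (14062 rows matched, 69.8%), and 2 rows sharing a symbol were summed. A gene was tested if it reached 1 TPM in 2 or more libraries (10424 genes).

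Libraries were scaled by median-ratio factors over the 14121 genes above 0 in every library, and log2(scaled TPM + 1) was compared between the groups by limma 3.58.1 under R 4.3.3, using a trended empirical Bayes variance, with Benjamini-Hochberg adjustment. A fold on this scale understates the change of low genes. Python 3.11.15, pandas 2.3.3 and matplotlib 3.10.9 made the tables and figures. Data were simulated for pgEpiSC against pEF (9788 genes, 50 changed at each size). Of those changed by -2 and 2 log2 units 86 and 74% were recovered, and of those changed by -1 and 1 34 and 24%. Among the unchanged genes 6 were called. Few genes were changed in the simulation, whereas 57.9% of the tested genes were called in the data. The adjusted threshold depends on that share, so these rates do not give the recovery in the data.

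The members and lists were chosen with earlier results of these data known. Genes named in full are the 6 largest rises and all falls among called members, the 3 most abundant of each subunit, the 3 largest and 3 smallest CVs, the MRPS18 paralogs, MRPS30, MRPL12 and MRPL58, and up to 3 called genes of each further list; MRPL10, MRPL19, MRPL28, MRPL36, MRPL46, MRPL47, MRPS5, MRPS7, MRPS11, MRPS24 and MRM1 were named after their values were seen. MRPL55 was named only for its placement by origin. MRPS36 was not analysed here, nor were promoter motifs. Alternatives were the values as deposited, rescaling to 1000000, quantile normalization, pseudocounts of 0.1 and 5, no filter, a mean TPM of at least 5, no trend, a robust variance, a replicate block, each library left out, subunits by known place, and, chosen after seeing the data, pgEpiSC 1 and 4 or 2 and 3 left out.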

Additional observations from a re-analysis of the deposited data

Results flagged for a closer look

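MRPS9 in pgEpiSC 2 stood apart from the other pgEpiSC libraries, at 5.358 scaled TPM against 4.56, 4.57 and 4.67 in pgEpiSC 1, 3 and 4; the gap was 0.873 of the whole range. It was the only 1 of 30 results checked in this way, where chance flags about 1 group in 20, and every pgEpiSC value stayed above both pEF values of 2.25 and 2.34.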

How the results depend on the processing

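Over all tested genes 2812 were higher and 3222 lower in pgEpiSC; a mean TPM of at least 5 gave 1229 and 1032, values as deposited 1874 and 983, and leaving out 1 library 1685 to 2562 higher and 2142 to 3225 lower. The 20 members higher became 38 after quantile normalization, where 35.1% of all tested genes were called higher. With 1 pgEpiSC library left out they became 14 (without pgEpiSC 1, 24.2% of all tested genes) to 26 (without pgEpiSC 3, 24.8%). Leaving out pgEpiSC 1 and 4 made 12 (24.6%) and leaving out pgEpiSC 2 and 3 made 39 (33.5%), these last settings chosen after seeing the data. The 2 members lower became 0 as deposited and 1 to 4 with 1 library left out. Where 1 pEF library was left, it was assumed to vary like the others.

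The median fold was 1.06 over all members, 1.07 over the large and 1.06 over the small subunit as deposited. Without pgEpiSC 1 and 4 it was 0.25, 0.28 and 0.15 for the same sets, and with 1 library left out 0.41 to 0.59, 0.39 to 0.59 and 0.41 to 0.57. The large-to-small ratio taken from medians was 1.496 in pgEpiSC and 1.84 in pEF, by known place 2.76 in pEF, and with 1 library left out 2.71 to 2.96 in pgEpiSC and 2.48 to 2.56 in pEF. The share of listed TPM was 0.518% in pgEpiSC and 0.408% in pEF without cytosolic ribosomal protein and histone genes, and 0.443 to 0.455% and 0.356 to 0.378% with 1 library left out. The median CV was 47.5% as deposited and 14.7 to 23.9% with 1 library left out. The cause of these shifts was not tested.

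Direction turned for 8 of the 24 members named by rule, none of them called with all libraries after scaling: MRPL57 (-0.21), MRPL13 (-0.0196) and MRPS31 (-0.20) without pgEpiSC 1 and 4; MRPS6 (0.37), MRPL16 (0.49), MRPL33 (0.39), MRPS18A (0.24) and MRPS18B (0.0108) as deposited; MRPS6 (0.10) and MRPL33 (0.21) without pgEpiSC 2 and 3; MRPL16 (0.0949) after quantile normalization; and MRPL33 (0.0228) without pEF 1 (-0.58 without pEF 2). Over all 63 members the sign turned for 14 as deposited, 6 after quantile normalization, 5 without pgEpiSC 1 and 4 and 0 to 4 in each other setting. These signs are set against 0 and not against the typical gene of the setting. For the named members the other values were 367 on the same side of the threshold, 35 that lost the call and 14 that gained it.

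Replicate numbers 1 and 2 occur in both groups, but the labels do not pair them, and the deviations of the same-numbered libraries from their group means correlated at 0.07 and 0.11. With the replicate number as a block 18 members were higher (17 of them shared with the 20) and 2 lower, with a median fold of 0.57. In that setting 22.2% of all tested genes were called higher and 25.2% lower. Depth could not be weighed, since TPM keeps none.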
